A study of Mus musculus with 168 samples.

Results

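Facial motor neurons of mice with spinal muscular atrophy (SMA) were compared with those of littermate controls at postnatal day 10, which the study describes as late in the disease. The comparison rested on 8 of the 160 mouse and population samples of the study (168 libraries), namely the 4 SMA and 4 control mice labelled as facial neurons of that age, with 1 library and 1 value per mouse. The SMA mice were of the delta7 line (Smn-/-/SMN2+/+/SMN∆7+/+). They lack the mouse Smn1 gene and carry 2 human transgenes, SMN2 and an SMN cDNA without an exon, and the controls (Smn+/+/SMN2+/+/SMN∆7+/+) carry both transgenes as well and keep Smn1. Laser capture took about 150 facial nucleus cells per tube from stained frozen sections, and Smart-seq2 libraries were made from polyA RNA. The study sampled 6 neuronal populations at 3 ages, and several mice gave samples to more than 1 population.

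SMN is part of a complex that loads Sm proteins onto the small nuclear RNAs of the spliceosome, and SMA is caused by too little of it. The facial nucleus is the motor nucleus of the brainstem that drives the muscles of facial expression. The transcription factor p53 is held low in healthy cells by Mdm2 and, once stabilised by stress, switches on genes that stop the cell cycle, repair DNA or start cell death.

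Levels are in RPKM, which corrects read numbers for the length of a gene and the size of a library. Differences are SMA minus control on the scale of log2(RPKM + 1), which understates the change of genes with low levels, and a gene is called when limma gives an adjusted p under 0.05. Folds are ratios of mean RPKM and are given only where the control mean was at least 1 RPKM. Depth, recovered from the values, was about 2.91 to 3.71 M reads in the SMA libraries and 2.76 to 9.29 M in the controls, and 14957 to 18419 genes were above 0 per library. Pearson correlations of log values between 2 samples were 0.892 to 0.952 within a genotype and 0.894 to 0.944 between genotypes. By Xist and Y-linked genes, 3 of 4 SMA mice and 2 of 4 controls were female. Motor neuron markers were present in both groups. Prph was at 1344 ± 171 RPKM in controls and 1477 ± 127 in SMA mice, Isl1 at 117 ± 18.9 and 107 ± 12, and Slc5a7, the choline transporter, at 118 ± 28.8 and 117 ± 26.9 (SD, n = 4 each). These 3 do not stand for all: of 15 such markers tested, 6 had a positive difference, and the median was −0.12. Chodl, which was called, and Chat, which was not, were lower in SMA mice and are given below. In pooled cells, fewer cells of a type and less RNA per cell cannot be told apart.

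Of 17270 genes tested, 97 were higher in SMA facial neurons (0.562%) and 18 were lower (0.104%). At an unadjusted p under 0.05 there were 1350 genes in all. The median difference was 2.06 for the genes that rose, −1.34 for those that fell and 0.01 for all genes tested. In 47 of the 97 rises the control mean was under 1 RPKM, and in 16 of these all 4 controls were listed at 0. In 19 rises the control mean was at least 10 RPKM. Among the 18 falls 12 had a control mean of at least 10 RPKM. All 4 SMA mice lay above all 4 controls for 86 of the 97 rises, against 3.32% of all genes, and all 4 lay below for 16 of the 18 falls, against 2.18% of all genes. The calls were made from these same mice, so such separation follows largely from the selection and adds no support to them. The number of calls depended on single mice: it was 61 without SMA mouse 258, with 55 rises and 6 falls, and 75 without control mouse 247, with 65 rises and 10 falls. The falls numbered 9 without SMA mouse 249 and 10 without control mouse 254.

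**Figure D1:**
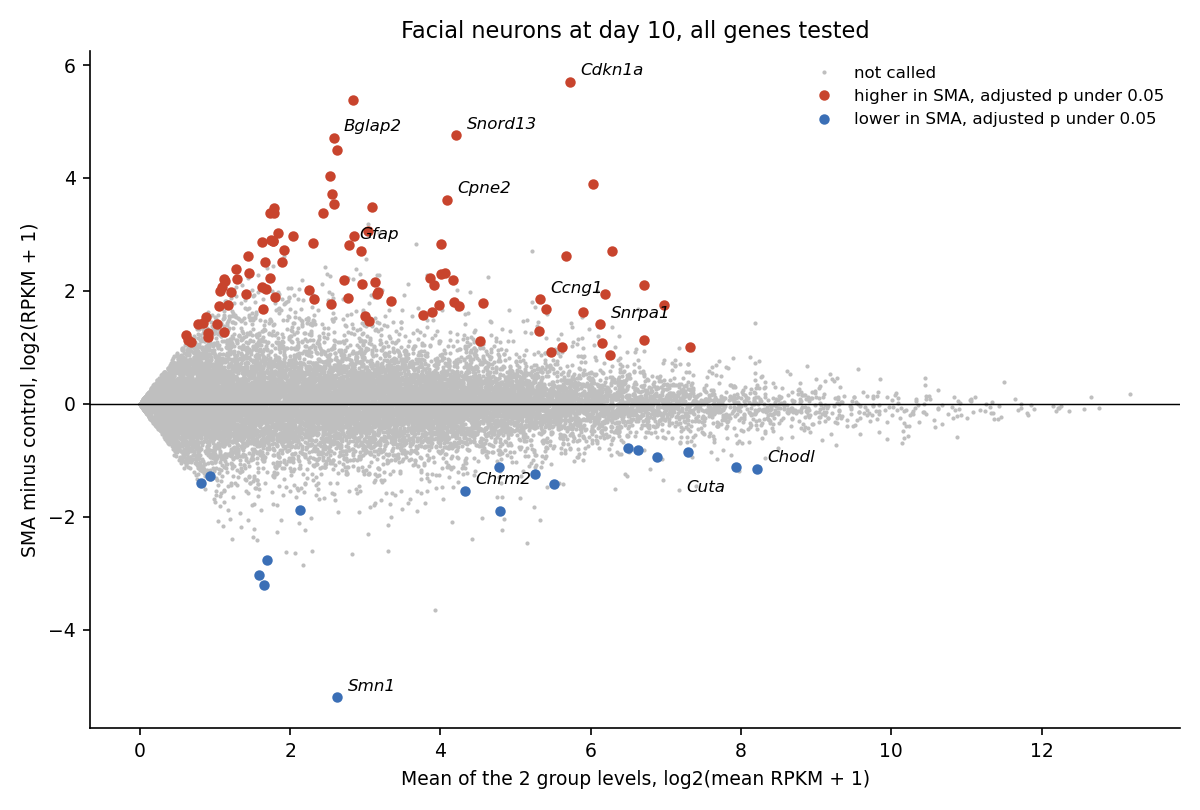
Each point is one of the 17270 genes, with the mean of its group levels on the horizontal axis and the difference between SMA and control mice on the vertical axis, both on a log2 scale. The 97 rises lie above 0, with Cdkn1a at 5.71, and the 18 falls are fewer and, apart from Smn1 and some genes of low level, smaller.

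Smn1 was at 40.8, 49.9, 37.4 and 21.0 RPKM in the 4 control mice and was listed at 0 in all 4 SMA mice (adjusted p = 1.02e-07). Each of the 8 libraries thus matched its genotype label. Smn1 was also called in each of the other 5 populations. Of 31 genes for the SMN complex and the proteins of the small nuclear ribonucleoproteins, Smn1 alone fell and Snrpa1 alone rose, and the list's median difference was 0.08. Snrpa1 encodes the A′ protein of the U2 particle. Its level was 30.6, 55.0, 50.8 and 31.6 RPKM in controls and 71.9, 125, 127 and 127 in SMA mice, with no overlap, a 2.69-fold rise (difference 1.41 ± 0.26 SE, adjusted p = 0.0046). Snrpd1, an Sm core protein, was not called, at 83.2 ± 5.90 RPKM in controls and 109 ± 12.8 in SMA mice (SD, n = 4 each; adjusted p = 0.57). The row of the small nucleolar RNA Snord13, which acts in the processing of ribosomal RNA, rose from 1.87, 2.05, 3.48 and 2.07 RPKM to 142, 49.5, 153 and 57.1 (adjusted p = 1.56e-05). At 104 bases this row is short, and its levels stood for 1 to 2 reads per control library and 15 to 57 per SMA library. The libraries were made from polyA RNA, and whether these reads came from the mature small RNA was not tested.

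Genes of the p53 pathway were among the rises. Of 53 genes tested in 3 lists of p53 targets and regulators, 18 rose and none fell, against 0.562% and 0.104% of all genes. In all 18 the 4 SMA mice lay above the 4 controls, against 3.32% of all genes. That separation follows largely from the selection of calls. Across these lists 43 of 53 differences were positive, against 51.0% of all genes. The genes of the lists were chosen with earlier results of these data known, so the counts describe and do not test the pathway.

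Among 20 targets that act on the cell cycle and DNA repair, 8 rose, and the list's median difference was 0.78. Cdkn1a, the cyclin-dependent kinase inhibitor p21, had the largest difference of all 17270 genes. Its level was 10.7, 1.12, 8.34 and 7.27 RPKM in controls and 370, 435, 227 and 385 in SMA mice, so that the lowest SMA mouse stood far above the highest control (51.7-fold, difference 5.71 ± 0.61 SE, adjusted p = 1.77e-06). Ccng1, cyclin G1, rose 3.67-fold from 20.3 ± 5.64 to 74.7 ± 15.5 RPKM (SD, n = 4 each; adjusted p = 6.29e-05). Plk2, a polo-like kinase that neurons also use at synapses, rose 4.98-fold from 6.88 ± 4.27 to 34.3 ± 3.68 (adjusted p = 4.01e-05). The other 5 were at lower levels. They were Gtse1, a microtubule-binding partner of p53 (0.697 ± 1.32 to 7.15 ± 1.14 RPKM), Psrc1, a spindle protein (0.230 ± 0.461 to 8.51 ± 4.48), Btg2, an antiproliferative protein (3.76 ± 2.32 to 15.7 ± 2.79), Polk, a DNA polymerase that copies past lesions (1.64 ± 0.298 to 8.49 ± 0.832), and Fam212b, also called Inka2 (2.20 ± 1.10 to 9.65 ± 2.36). Gadd45a, a classical p53 target, did not rise with them (36.7 ± 19.4 and 24.0 ± 10.7 RPKM; adjusted p = 0.93).

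Among 20 targets grouped in a list for cell death, 8 rose as well, and the median difference was 1.34. Not every member is a death gene, as Dcxr below shows, so the 8 are not a count of death genes. Receptors of the tumour necrosis factor family were part of this group. Fas was at 0.914, 1.15, 0 and 0.435 RPKM in controls and at 14.3, 23.3, 15.0 and 28.7 in SMA mice (adjusted p = 2.06e-05). Tnfrsf10b, the mouse receptor for the death ligand TRAIL, was listed at 0 in all 4 controls and at 4.76, 3.03, 2.73 and 4.42 in SMA mice (adjusted p = 0.000241). Eda2r was likewise listed at 0 in all controls and stood at 1.33 ± 0.300 RPKM in SMA mice (adjusted p = 0.0189). On the mitochondrial side, Pmaip1, the BH3-only protein Noxa, went from 0.232 ± 0.139 to 9.32 ± 3.00 RPKM (adjusted p = 1.65e-05). Bbc3, which encodes the related protein Puma, and Bax were not called: Bbc3 was at 3.05 ± 0.913 and 7.32 ± 3.51 RPKM (adjusted p = 0.61) and Bax at 58.9 ± 11.4 and 79.6 ± 18.6 (adjusted p = 0.95). Lrdd, also called Pidd1, which activates caspase-2, varied little among SMA mice, with 0.936, 1.64, 1.63 and 2.18 RPKM in controls and 18.4, 19.4, 18.8 and 19.6 in SMA mice (11.9-fold, adjusted p = 0.00397). The remaining 3 were Dcxr, a sugar reductase that rose 16.4-fold from 15.6 ± 1.93 to 255 ± 78.1 RPKM, Rprm (8.95 ± 4.55 to 32.1 ± 12.2) and Perp, a membrane protein of cell junctions (7.41 ± 1.90 to 37.5 ± 8.19).

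The transcript of p53 itself rose. Trp53 was at 5.01, 11.3, 6.92 and 6.38 RPKM in controls and at 21.5, 16.4, 26.5 and 35.1 in SMA mice, 3.36-fold higher (difference 1.62 ± 0.30 SE, adjusted p = 0.00487). Its family member Trp73 was listed at 0 in all controls and was at 1.96, 0.614, 1.12 and 3.92 in SMA mice (adjusted p = 0.0059). These were the only calls among 13 genes for p53 and its regulators, whose median difference was 0.50. Mdm2, which p53 switches on and which marks p53 for destruction, lay above the controls in all 4 SMA mice but did not pass (13.2 ± 3.84 and 33.4 ± 6.02 RPKM; adjusted p = 0.21).

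Of the 18 p53 genes, 10 were called whichever mouse was left out. Trp73 was called in 5 of the 8 fits and, for its low level, could not be tested without SMA mouse 196, 249 or 258. Leaving out control mouse 247 took Rprm to an adjusted p of 0.0528. Psrc1 was lost in 5 of the 8 fits with 1 mouse left out, Fam212b and Eda2r in 6, Btg2 in 7, and Polk and Perp in all 8, with adjusted p up to 0.221 for Btg2. With a pseudocount of 0.1, 6 of the 18 calls were lost, those of Btg2 (adjusted p = 0.0722), Gtse1 (0.0671), Polk (0.0755), Fam212b (0.422), Perp (0.252) and Lrdd (0.189). A fit of the 8 samples of day 10 alone lost 3, Btg2 (0.053), Eda2r (0.215) and Rprm (0.103).

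**Figure D2:**
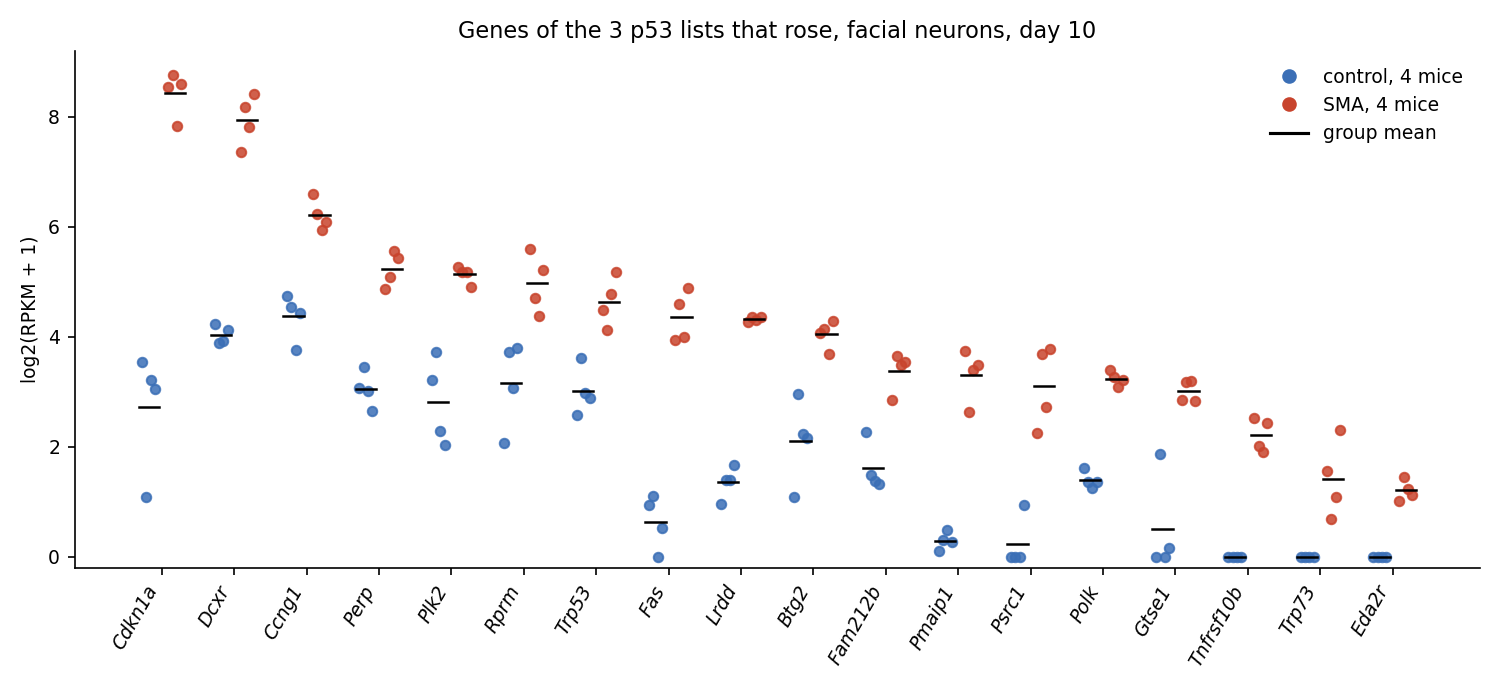
The 18 p53 genes that rose are ordered by their mean in SMA mice, with 1 point per mouse on a log2(RPKM + 1) axis and a line at each group mean. In each gene the 4 SMA mice stand above the 4 control mice, which follows largely from the selection of these genes as rises. In Tnfrsf10b, Trp73 and Eda2r all controls are at 0.

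Promoter windows (250 bases before to 50 after a start site, RefSeq, GRCm38.p6) were searched on both strands for the p53 response element, a pair of half-sites of 10 bases with a gap of up to 13. A window with the pair at no more than 1 mismatch was present for 5 of the 73 rises that had a window and 0 of 16 falls, against 0.718% of 27025 genes, and a half-site without mismatch for 15 rises and 0 falls, against 9.55%. The genes with a pair were Cdkn1a and Ifitm2, both without mismatch, and Ccng1, Gtse1 and Fam212b with 1. The sequences of Cdkn1a and Ccng1, the most expressed of the listed cell cycle targets that rose, are shown with that of Ifitm2, a gene outside the lists, so that the matches can be read. Capitals mark the half-sites.
Cdkn1a (chr17:29090881-29090962, plus strand, 73 to 42 bases before an upstream start site): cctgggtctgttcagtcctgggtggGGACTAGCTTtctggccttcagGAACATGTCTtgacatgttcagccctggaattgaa
Ccng1 (chr11:40755437-40755506, minus strand): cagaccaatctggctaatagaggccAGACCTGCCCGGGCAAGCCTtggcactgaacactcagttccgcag
Ifitm2 (chr7:140956125-140956202, minus strand): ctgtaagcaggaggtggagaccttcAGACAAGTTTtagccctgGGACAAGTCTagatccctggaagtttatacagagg
A match describes these letters and is no evidence of binding. Ifitm2, an interferon-induced membrane protein, was named because of its match and rose from 34.0, 20.4, 6.93 and 31.1 RPKM to 73.9, 96.3, 28.0 and 95.1 (adjusted p = 0.0281), with SMA mouse 249 inside the range of the controls.

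Several of the largest rises outside these lists were of genes known from other tissues. Bglap and Bglap2 encode osteocalcin, a hormone of bone. Bglap was listed at 0 in all 4 controls and at 12.5, 41.2, 83.9 and 61.5 RPKM in SMA mice (adjusted p = 3.48e-06). Bglap2 was at 0, 0, 0 and 0.686 in controls and at 21.1, 34.2, 29.6 and 32.7 in SMA mice (adjusted p = 5.41e-10). In a limma fit of the 8 samples of day 10 alone the adjusted p was larger, 0.000537 for Bglap and 6.67e-05 for Bglap2. Both genes lie next to each other on chromosome 3 and are nearly identical, so how reads were divided between them is uncertain. Trim72, a membrane repair protein of muscle, went from 0.766 ± 0.272 to 19.4 ± 1.19 RPKM (adjusted p = 1.02e-07), and Gjb5, a connexin of epithelia, from 0 in all controls to 10.0 ± 3.76 (adjusted p = 1.65e-05). Ly6d, a surface protein of lymphoid and epithelial cells, was listed at 0 in all controls, and its SMA levels of 0.497, 49.2, 13.3 and 66.8 spread widely among mice (adjusted p = 0.00226). Cpne2, a calcium-dependent membrane-binding protein of the copine family, rose 14.6-fold with little spread, from 3.40, 4.84, 5.41 and 2.07 to 55.5, 53.8, 53.1 and 67.6 (adjusted p = 9.33e-08).

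The other large rises were Spc25, a kinetochore protein (1.64 ± 1.35 to 26.4 ± 10.7 RPKM, adjusted p = 0.014), Rab42, a small GTPase (0.637 ± 1.27 to 16.9 ± 9.96, adjusted p = 0.0279), the noncoding RNA 2010001M06Rik, also called Abhd11os (0.297 ± 0.593 to 28.1 ± 9.88, adjusted p = 0.000949), and the small nuclear RNA gene Gm24517 (0 in all controls to 10.9 ± 4.72, adjusted p = 7.46e-07). The values of Gm24517, 107 bases long, stood for 0 reads in every control library and 2 to 5 in each SMA library, so that this call rests on few reads. Whether they came from the mature small RNA was not tested. A limma fit of the 8 samples of day 10 alone gave it an adjusted p of 0.00183. Spc25 was lost without SMA mouse 258 or control mouse 253 (adjusted p up to 0.0789), and Rab42 was lost in 6 of the 8 fits with 1 mouse left out (up to 0.126). Some of these rows share exons with a gene on the opposite strand, and the sources used here do not say whether strand was used in counting, so reads of such partners may not have been told apart. That held for 20 of the 115 calls, among them 2010001M06Rik, whose partner Abhd11 was at 47.9 ± 15.5 and 42.0 ± 5.97 RPKM (adjusted p = 0.99).

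Tap1, the peptide transporter of MHC class I presentation, was the only rise among 13 genes of that list and none fell (0.864 ± 0.865 to 12.1 ± 4.86 RPKM, adjusted p = 0.00998). It was lost without control mouse 247 (adjusted p = 0.0517). Its neighbour on the opposite strand, Psmb9, an immunoproteasome subunit, was at 3.23 ± 5.35 and 14.2 ± 6.75 and was not called (adjusted p = 0.21). B2m, the light chain of the complex, was at 89.6 ± 13.3 and 95.7 ± 22.7 (adjusted p = 1.0). Among 47 voltage-gated ion channel genes the sole call was Scn3b, an auxiliary sodium channel subunit, which rose 5.00-fold from 4.14, 6.14, 7.18 and 7.17 RPKM to 45.8, 33.5, 18.8 and 25.1 (adjusted p = 2.06e-05). The list's median difference was −0.07.

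Gfap, the intermediate filament that defines astrocytes, rose 10.4-fold from 3.00, 0.726, 1.64 and 1.14 RPKM to 14.8, 18.8, 11.6 and 22.8 (difference 2.81 ± 0.54 SE, adjusted p = 0.00742). The other 11 astrocyte markers did not pass, 7 of the 12 differences were positive, and 3 had an unadjusted p under 0.05: Gfap, Aqp4 and Fgfr3, a growth factor receptor, which was at 0.652, 2.76, 1.59 and 2.06 RPKM in controls and 11.2, 4.17, 8.94 and 3.77 in SMA mice (adjusted p = 0.302). The summed level of the 12, of which Aldoc and S100b made up 94.3 to 98% in each library, was 1982 to 2270 RPKM in controls and 1874 to 2493 in SMA mice. Aqp4 was at 4.76 ± 1.24 and 9.86 ± 2.97 RPKM and Slc1a3 at 8.80 ± 3.01 and 8.61 ± 3.93. All 12 microglial markers had positive differences, with a median of 0.68, and none was called (1 at an unadjusted p under 0.05). Their summed level was 5.31 to 14.5 RPKM in controls and 11.9 to 69.4 in SMA mice. By limma none of 11 oligodendrocyte and none of 8 vessel markers was called either (2 and 1 at an unadjusted p under 0.05), and markers of other motor pools summed to at most 0.369 RPKM in any library. The 5 markers of inhibitory neurons all had negative differences, and none was called or had an unadjusted p under 0.05. Their summed level was highest in control mouse 247 (40.3 RPKM), where Gad1 was at 16.1 against 0 to 1.02 in the other controls and 5.99 in SMA mouse 196. This is the control mouse without which 75 calls were left, and the part of other neurons in the calls was not tested. Of 3 markers of excitatory neurons of other nuclei none was called, and 1 had an unadjusted p under 0.05. The part of captured glia in the rises of Gfap and Tap1 was not tested. With a pseudocount of 0.1 the call of Gfap was lost (adjusted p = 0.18), as was that of Tap1 (0.143).

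Among the falls was Chrm2, the M2 muscarinic acetylcholine receptor, which motor neurons place beneath their cholinergic C-bouton inputs. It was at 38.2, 35.1, 29.0 and 29.6 RPKM in controls and at 13.1, 13.1, 9.72 and 7.56 in SMA mice, 3.04-fold lower without overlap (difference −1.54 ± 0.29 SE, adjusted p = 0.00537). It was the only call among 34 transmitter receptor genes, of which 7 had a positive difference. The list's median was −0.31. Chrm2 was called whichever mouse was left out, and it shares exon sequence with a noncoding gene on the opposite strand, 9330158H04Rik.

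Chodl, chondrolectin, a membrane protein that marks fast motor neurons, was at 446, 423, 469 and 414 RPKM in controls and at 169, 200, 269 and 164 in SMA mice, 2.18-fold lower (difference −1.15 ± 0.23 SE, adjusted p = 0.01). It was the only call among 15 cholinergic and facial motor neuron markers, whose median difference was −0.12. Chat, the acetylcholine-synthesising enzyme, was at 29.4 ± 4.74 and 18.2 ± 4.84 RPKM, below the controls in all 4 SMA mice, and was not called (adjusted p = 0.88). Tmprss15, the intestinal enteropeptidase, ends 1274 bases from the end of Chodl on the opposite strand of chromosome 16 and was lower too, at 1.9, 2.4, 1.91 and 1.68 RPKM in controls and 0.374, 0.246, 0 and 0.294 in SMA mice (adjusted p = 0.0453). Whether reads of Chodl reached its row was not tested.

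The other named falls were of widely expressed genes. Cuta, a protein reported to associate with acetylcholinesterase in brain, fell 2.14-fold from 320, 343, 382 and 384 RPKM to 158, 212, 130 and 168 (adjusted p = 0.01). Armc9, a protein of cilia, was at 32.8, 62.8, 52.3 and 41.4 in controls and at 31.9, 13, 3.63 and 10.6 in SMA mice (3.20-fold, adjusted p = 0.0329), with SMA mouse 196 just under the lowest control. The methyltransferase-like gene 0610011F06Rik, also called Mettl26, fell 2.66-fold (72.3 ± 20.5 to 27.2 ± 10.8 RPKM, adjusted p = 0.0134). Pigp, an enzyme of glycolipid anchor synthesis, fell 2.39-fold (57.5 ± 17.3 to 24.0 ± 7.51, adjusted p = 0.0329), and 2310009B15Rik fell 2.36-fold (40.4 ± 18.0 to 17.1 ± 3.74, adjusted p = 0.0342). Of 2 secreted proteins, Fstl1 fell 1.79-fold (209 ± 35.1 to 117 ± 26.8, adjusted p = 0.0373) and Fndc4 fell 1.76-fold (130 ± 14.0 to 73.9 ± 10.9, adjusted p = 0.01). Cuta shares exons with Phf1 on the opposite strand, which was at 6.89 ± 1.79 and 8.68 ± 2.80 RPKM (adjusted p = 0.98).

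Among these falls Smn1 and Chrm2 were called whichever mouse was left out. Chodl and Fndc4 were lost without SMA mouse 258 (adjusted p of 0.056 and 0.0604) and Cuta without SMA mouse 249 (0.0523). The call was lost in 4 of the 8 fits with 1 mouse left out for 0610011F06Rik, in 5 for Pigp, in 6 for Armc9, 2310009B15Rik and Fstl1, and in all 8 for Tmprss15, with adjusted p up to 0.169 for Pigp and Fstl1. A fit of the 8 samples of day 10 alone lost 7 of the 11 named falls: Armc9 (adjusted p = 0.164), 0610011F06Rik (0.0869), Pigp (0.118), 2310009B15Rik (0.207), Fstl1 (0.144), Fndc4 (0.0707) and Tmprss15 (0.166).

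**Figure D3:**
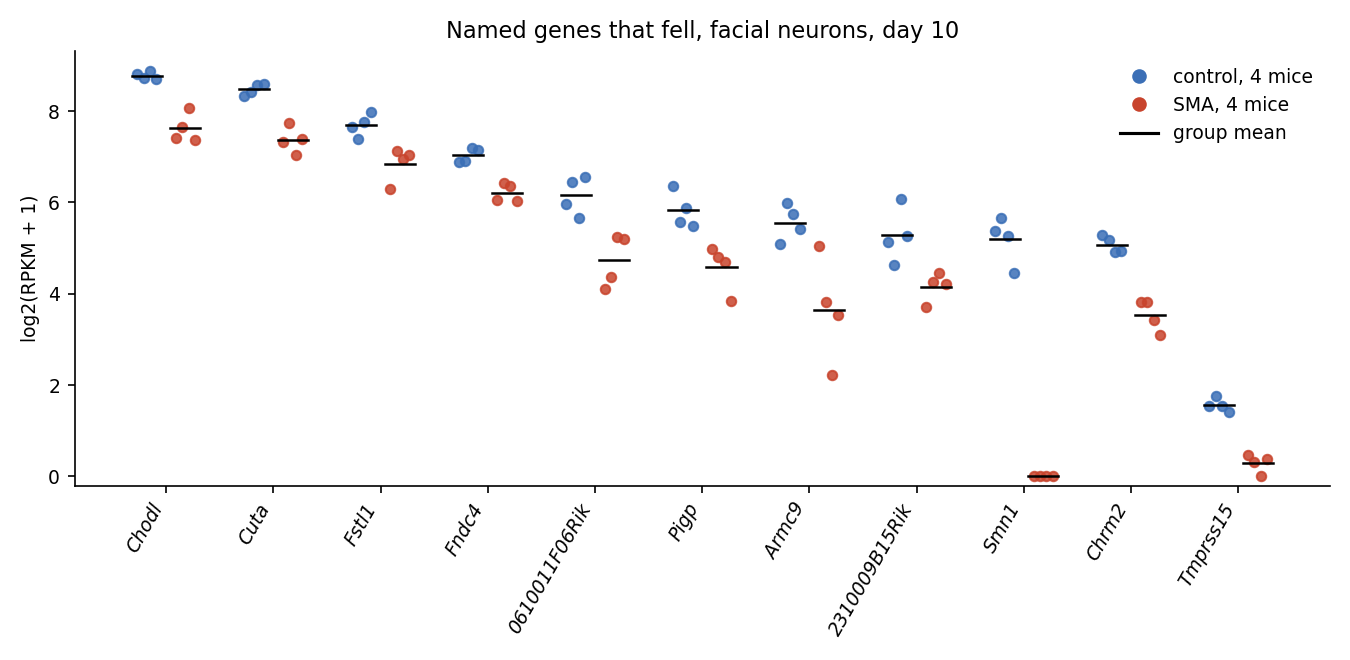
The 11 named genes that fell are ordered by their mean in controls, with 1 point per mouse on a log2(RPKM + 1) axis and a line at each group mean. All SMA mice lie below all controls in each gene, which for all but Tmprss15 was part of the rule for naming falls. Smn1 is at 0 in every SMA mouse, and in Armc9 the highest SMA mouse nearly reaches the lowest control.

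Several programmes that motor neurons can show after injury or under stress gave no call. Of all 17270 genes 0.562% rose and 0.104% fell, and 1350 had an unadjusted p under 0.05. At such shares lists of this size would hold few or no calls, so the lack of calls says little about these programmes. None of 33 genes of axon injury and regeneration passed, with Atf3 at 0.163 ± 0.326 and 1.14 ± 1.16 RPKM (adjusted p = 0.88), and 22 of the 33 differences were positive around a median of 0.23, with 3 at an unadjusted p under 0.05. None of 27 genes of the unfolded protein and integrated stress responses passed, with Ddit3 at 53.6 ± 12.8 and 45.8 ± 29.7 RPKM (adjusted p = 0.94) and a median of −0.01, and 4 had an unadjusted p under 0.05. None of 9 genes of neurofilaments and related filaments passed, with Nefl at 5005 ± 692 and 4818 ± 346 RPKM (adjusted p = 1.0), and 1 had an unadjusted p under 0.05. No call was made either among 29 genes of synaptic vesicle release (median −0.06), 31 neuropeptide genes (median −0.10) and 26 genes of neurotrophic factors and their receptors (median 0.09), where 1, 5 and 1 had an unadjusted p under 0.05. Btg2, given above with the p53 targets, was the sole call among 17 immediate early genes. These were limma tests with 4 mice a group, and a p that misses the threshold does not show that a level was unchanged.

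At the earlier ages few genes were called in facial neurons: 4 at day 2 (0.0232%), with 7 SMA and 5 control mice, and 12 at day 5 (0.0695%), with 3 and 4. Of the 115 calls of day 10, 3 were called at day 2, namely Smn1, Snrpa1 and Snord13, and 5 at day 5, when Cdkn1a and Plk2 joined them. The differences of the 97 rises had a median of 0.14 at day 2 and 0.51 at day 5, beside 0.01 and 0.07 for all genes, and 72 and 81 of the 97 were positive. Cdkn1a differed by 2.19 at day 2 (adjusted p = 0.19), 3.85 at day 5 (adjusted p = 0.01) and 5.71 at day 10. Snrpa1 was already at 1.16 at day 2 (adjusted p = 0.049) and 1.74 at day 5 (adjusted p = 0.0047), and Snord13 at 2.68 (adjusted p = 0.041) and 4.42 (adjusted p = 0.00093).

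The change from day 2 to day 10 was tested directly. The difference between genotypes was larger at day 10 than at day 2 for 21 genes (0.122%) and smaller for none, and 19 of the 21 were calls of day 10. At an unadjusted p under 0.05 there were 1126. Cpne2 went from −0.18 at day 2 and 0.44 at day 5 to 3.62 at day 10 (test of day 10 minus day 2, adjusted p = 8.7e-06), and Bglap2 from 0.08 and 0.90 to 4.72 (adjusted p = 3.22e-07). Scn3b went from 0.08 and 0.36 to 2.10 (adjusted p = 0.006) and Pmaip1 from 0.15 and 1.27 to 3.02 (adjusted p = 0.00574). Plk2, Trim72, Bglap, Ly6d, Gjb5, Slc13a4, Tnfrsf10b and Gm24517 passed this test as well. Cdkn1a did not pass it (3.52 ± 0.80 SE, adjusted p = 0.085). A gene could enter this fit (1 RPKM in at least 3 samples) through the day 10 SMA mice alone. For such genes a larger difference at day 10 was partly set by the filter. Bglap, Ly6d, Gjb5, Tnfrsf10b and Gm24517 were listed at 0 in all day 10 controls, and Gm24517 rests on few reads. All 18 of the p53 genes had positive differences at day 5 and 15 of them at day 2. The count of 21 was 10 with a pseudocount of 0.1. It fell to 14 without SMA mouse 258 and was 29 without SMA mouse 196.

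**Figure D4:**
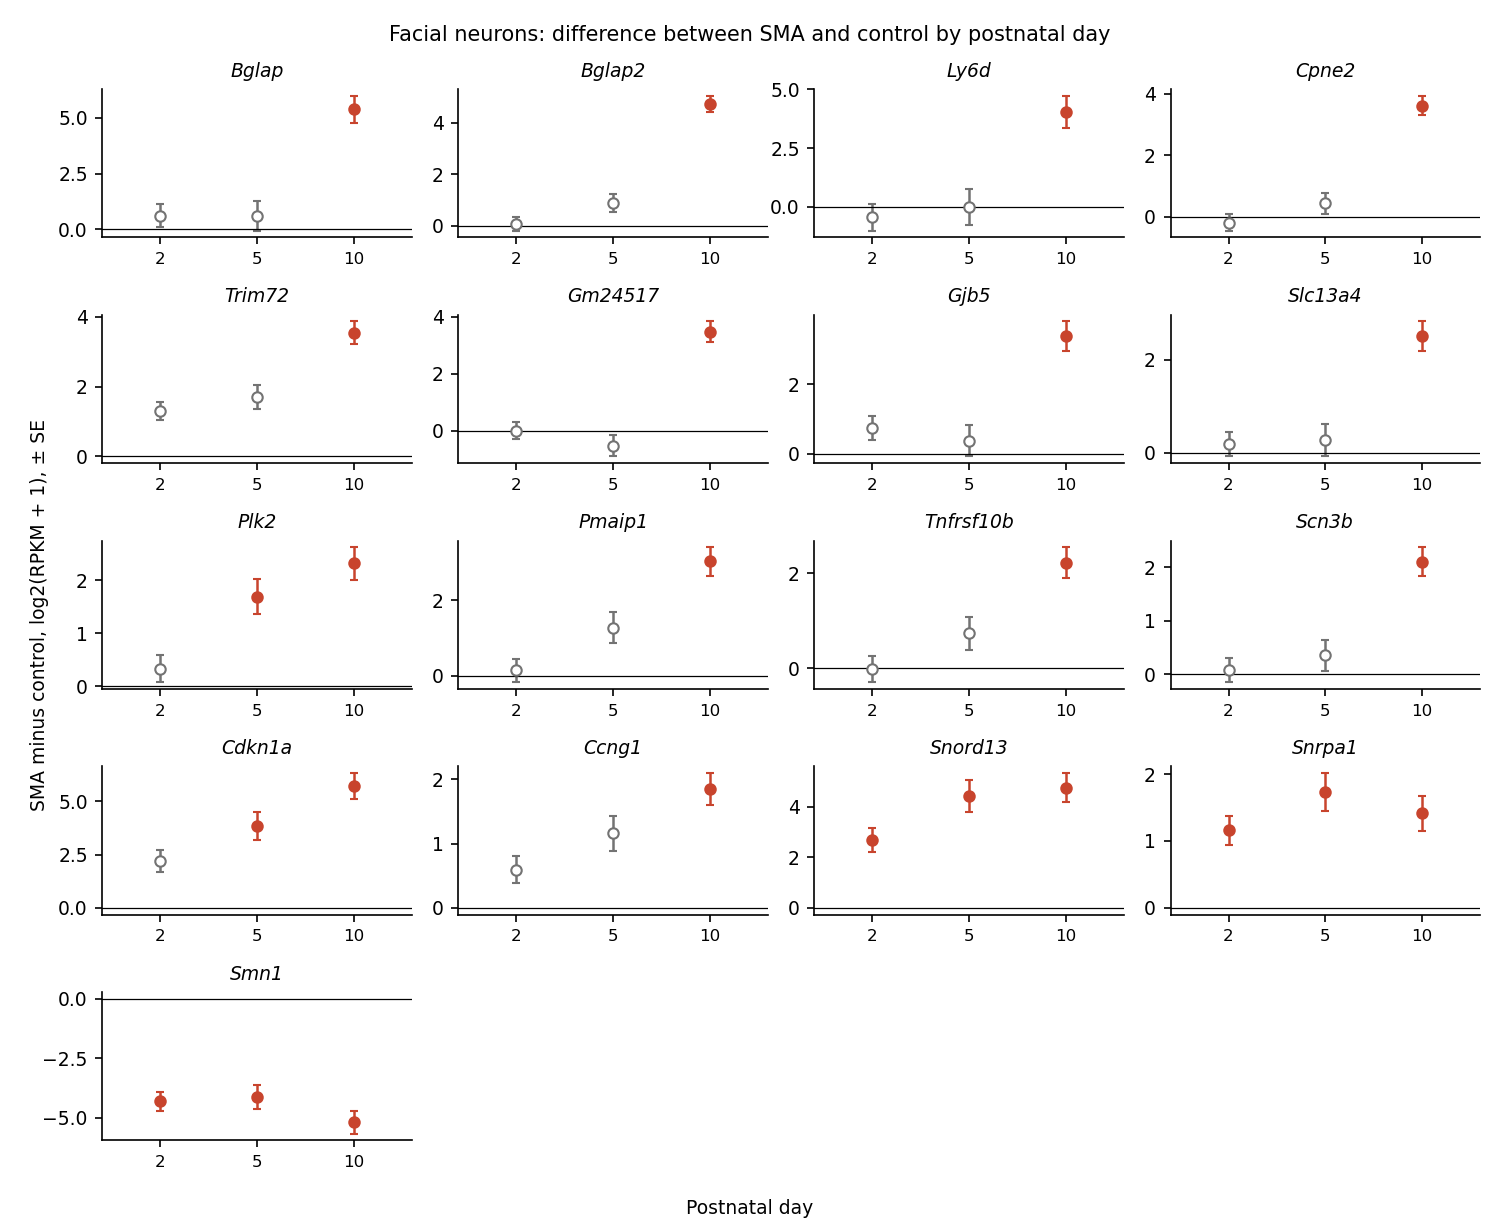
Each panel shows, for 1 gene, the difference between SMA and control facial neurons at postnatal days 2, 5 and 10 on the log2(RPKM + 1) scale, with its standard error, and filled red points mark an adjusted p under 0.05. Snord13, Snrpa1 and Smn1 are called at all 3 ages, Cdkn1a and Plk2 from day 5, and Cpne2, Bglap2 and Scn3b at day 10 only.

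The calls were then set against day 10 in the other 5 populations, each with 4 control and 4 or 5 SMA mice. The same mice gave several populations, so the lists are not independent. Lumbar motor neurons had 127 calls (0.775%), ocular motor neurons 57 (0.359%), hypoglossal 12 (0.0728%), red nucleus 2 (0.0124%) and vagus 1 (0.00599%). Facial and lumbar neurons shared 43 calls, 37.4% of the facial and 33.9% of the lumbar list. With ocular neurons 30 were shared (26.1% and 52.6%) and with hypoglossal neurons 11 (9.57% and 91.7%), while Smn1 alone was shared with vagus and with red nucleus. All shared calls had the same direction. The median difference of the facial rises was 1.56 in lumbar and 1.55 in ocular neurons, 0.91 in hypoglossal, 0.62 in red nucleus and −0.04 in vagus, where the medians of all genes were 0.05, 0.06, 0.08, 0.13 and 0.02. Of the 18 p53 genes, 10 were called in lumbar, 10 in ocular and 6 in hypoglossal neurons, and 7 in none: Polk, Perp, Rprm, Tnfrsf10b, Eda2r, Trp53 and Trp73.

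Of the 115 facial calls, 67 were called in no other population, 51 rises and 16 falls. Among the 18 falls the exceptions were Smn1 and Chodl, which was called in lumbar neurons. Absence of a call elsewhere is not a test of difference. For 31 of the 51 rises and 8 of the 16 falls, at least 1 other population had an unadjusted p under 0.05 in the same direction, and 27 of the 67 were too low to be tested in at least 1 other population, 11 of them being tested in 1 alone, Tnfrsf10b and Trp73 included, and 3 in none. Trp53, for example, differed by 1.12 in lumbar neurons (adjusted p = 0.051) against 1.62 in facial. The 67 became 28 without SMA mouse 258 and 35 without control mouse 247. They became 37, 40, 41 and 41 without control 252, SMA 199, control 253 and control 254.

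The difference between populations was therefore tested in a single fit to all 52 samples of day 10. The genotype difference of facial neurons departed from the mean of the other 5 populations for 21 genes (0.117%), larger in facial neurons for 16 and smaller or more negative for 5. Of these, 17 were facial calls, and 9 of the 17 were called in no other population. Against single populations, the difference departed for 49 genes from vagus (0.273%), 27 from red nucleus (0.151%), 7 from ocular (0.0391%), 6 from hypoglossal (0.0335%) and 2 from lumbar neurons (0.0112%). With the mouse as a replicate block, hypoglossal gave 12 genes in place of 6, and the count against the mean of 5 remained 21. With a pseudocount of 0.1 in place of 1 the count against the mean of 5 was 3, and it was 10 without control mouse 252 or 254, 11 without control 247 and 12 without SMA mouse 258. The counts against single populations also rested on single mice. Against ocular neurons none was left without control 252, 253 or 254, 1 without control 247 or SMA 196, and 3 without SMA 199 or 258. Against hypoglossal neurons none was left without SMA 258 or control 254, 3 without control 252, and 12 were called without SMA 249. Against lumbar neurons none was left without control 252, 4 were called without SMA 249, and 1 was called without any of the others except SMA 196. Against red nucleus 12, 15, 16 and 17 were called without SMA 258, control 254, SMA 199 and control 247, and against vagus 29 without control 254 and 31 without SMA 258. Among the 67 calls absent elsewhere, 16 passed at least 1 of these 6 tests, 13 rises and 3 falls.

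Gfap was tested in all 6 populations. Its difference was 2.81 ± 0.54 (SE) in facial neurons and 0.22 ± 0.38 in ocular, 0.66 ± 0.55 in lumbar, 0.87 ± 0.45 in hypoglossal, 0.53 ± 0.50 in red nucleus and 0.57 ± 0.43 in vagus. The excess over the mean of the other 5 was 2.24 ± 0.40 (adjusted p = 0.00263) and was called whichever mouse was left out. It was not called with a pseudocount of 0.1 (adjusted p = 0.444). Against single populations the Gfap difference passed for ocular neurons, red nucleus and vagus, and not for lumbar or hypoglossal neurons.

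Bglap2, at levels too low to be tested by itself in lumbar, red nucleus and vagus neurons, exceeded the mean of the other 5 by 3.54 ± 0.46 (adjusted p = 1.56e-05) and was larger in facial than in ocular (adjusted p = 0.0467) and lumbar neurons (adjusted p = 0.0327) in the tests of each pair, although it was called in ocular and hypoglossal neurons too. Bglap exceeded the mean by 4.27 ± 0.76 (adjusted p = 0.00263). It was also called outside facial neurons, and its pairwise tests against ocular, hypoglossal and lumbar neurons did not pass. Slc13a4, a sulfate transporter, was at 0.369, 0.407, 0.172 and 0.371 RPKM in facial controls and at 5.72, 7.51, 6.69 and 6.29 in SMA mice. It was called in lumbar neurons as well (2.29 ± 0.34 there, 2.50 ± 0.31 in facial), was too low to be tested in the other 4, and exceeded the mean of 5 by 2.18 ± 0.40 (adjusted p = 0.00428). Dmrtb1, a DM-domain transcription factor, stood at 0, 0, 0.587 and 0.176 RPKM in controls and 14.1, 6.46, 4.11 and 9.27 in SMA mice (adjusted p = 0.0255) and was called nowhere else. It exceeded the mean of 5 by 2.46 ± 0.49 (adjusted p = 0.0177) and, among the single populations, passed against vagus alone. Without single mice the excess of Dmrtb1 over the mean was lost in 5 of 8 fits (adjusted p up to 0.103), and its facial call in 6 of 8 (up to 0.0909).

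The 2 death genes Tnfrsf10b and Pmaip1 were too low to be tested by themselves in 4 and 3 of the other populations, and Tnfrsf10b was listed at 0 in all facial controls. In the fit of all populations, which a gene could enter through the 4 facial SMA mice, they exceeded the mean of the other 5 by 1.63 ± 0.23 (adjusted p = 2.74e-05) and 1.87 ± 0.31 (adjusted p = 0.00156), and both did so whichever mouse was left out. Pmaip1 was nevertheless called in ocular (2.07) and lumbar neurons (2.56), and neither pairwise test passed (adjusted p of 1.0 for both). Tnfrsf10b was larger in facial than in hypoglossal neurons (adjusted p = 0.0154), and its tests against red nucleus and vagus passed as well. Its tests against ocular and lumbar neurons did not pass. In ocular neurons Tnfrsf10b had an unadjusted p under 0.05 in the same direction. Cdkn1a was 5.59 in ocular, 4.85 in lumbar and 4.04 in hypoglossal neurons, 0.95 in red nucleus and 0.18 in vagus. Its excess of 2.59 ± 0.54 over the mean of 5 (adjusted p = 0.024) held, among the single populations, against red nucleus and vagus alone (adjusted p of 7.6e-05 and 1.1e-06), and it was lost in 5 of 8 fits with 1 mouse left out (up to 0.142). Trim72 too departed from the mean (1.97 ± 0.41, adjusted p = 0.024) and, singly, from red nucleus and vagus alone, and it was lost in 6 of 8 (up to 0.118).

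Of the falls, Cuta and Tmprss15 departed from the mean of the other 5. Cuta was at −1.11 ± 0.22 in facial neurons and between −0.60 and −0.02 in the others, an excess fall of −0.84 ± 0.19 (adjusted p = 0.0362), and Tmprss15 fell by 1.06 more on the log2 scale (adjusted p = 0.0188). Each lost the call in 7 of 8 fits with 1 mouse left out, with adjusted p up to 0.195 and 0.11. Chrm2 was at −1.54 in facial neurons and −0.62 in lumbar, −0.42 in hypoglossal, −0.32 in red nucleus, 0.05 in vagus and 0.48 in ocular neurons. It was lower in facial than in ocular neurons (−2.02 ± 0.42, adjusted p = 0.0467), and its departure from the mean of 5 was not called (adjusted p = 0.098). For Armc9, 0610011F06Rik, Pigp, 2310009B15Rik, Fstl1 and Fndc4, called in facial neurons alone, none of the 6 tests of the difference passed.

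**Figure D5:**
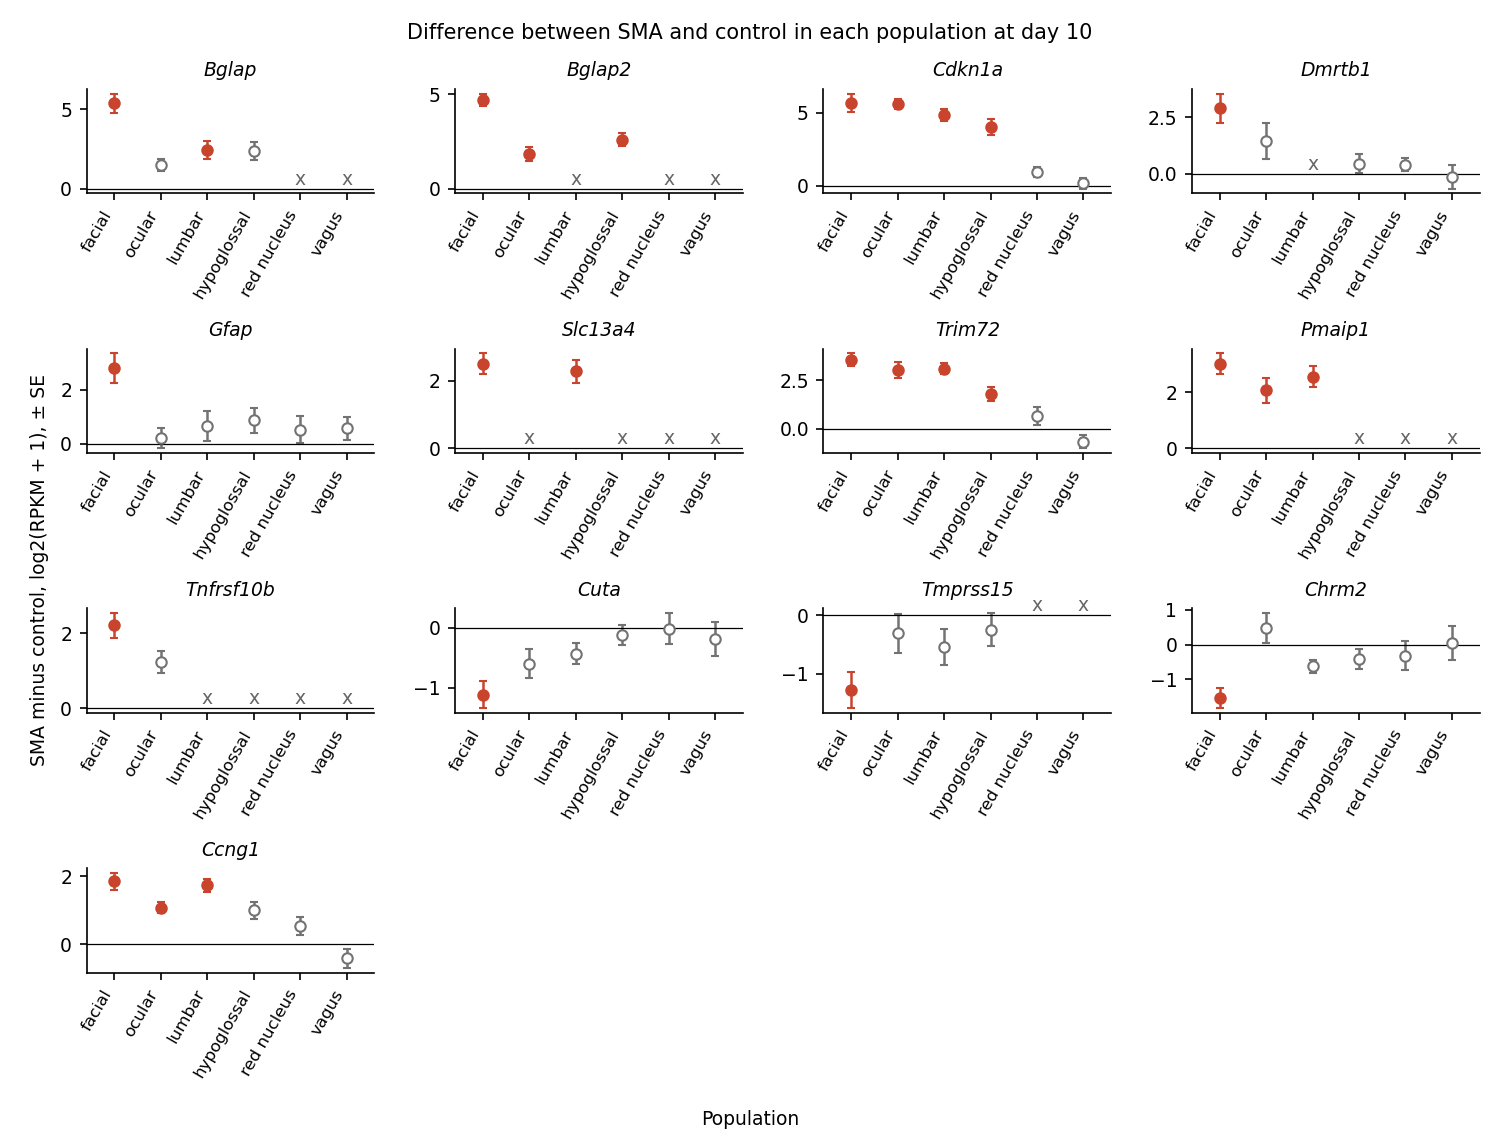
For 11 named genes whose genotype difference in facial neurons departed from the mean of the other 5 populations, and for Chrm2 and Ccng1, each panel gives the difference in each population at day 10 with its standard error. Filled red points mark an adjusted p under 0.05 and an x a gene not tested there for low levels. Gfap stands near 0.2 to 0.9 outside facial neurons, whereas Cdkn1a, Trim72 and Ccng1 are high in ocular and lumbar neurons too. The pairwise tests of Gfap against lumbar and hypoglossal neurons did not pass.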

How the data were processed

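Neurons were cut by laser and sequenced with Smart-seq2. The authors deposited 1 table of RPKM values (39410 rows, 168 libraries), mapped with STAR 2.4.1c to mm10 and hg19 per the submitters' processing notes. The read counter, its annotation and its use of strand are not given in the sources used here. The 8 facial samples used here had 1 library each, repeat libraries elsewhere were averaged per mouse, and mice served as replicates. The members and gene lists were chosen with earlier results of these data known.

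The test was limma 3.58.1 in R 4.3.3 (lmFit, eBayes with trend), run on log2(RPKM + 1). The facial fit held all 27 facial samples in 6 groups and genes at 1 RPKM or more in at least 3 of them. Each other population had its own fit, and differences between populations came from a fit of all 52 samples of day 10 (1 RPKM in at least 4). Tests were two-sided with Benjamini-Hochberg adjustment over all genes of a contrast. The scripts were tested on simulated data. Depth was recovered from the steps of low values over genes with 1 transcript in GENCODE M21, of which 68.5 to 71.4% fell on whole reads within 0.2%, so no count test was run. GENCODE M21 (GRCm38) placed 37851 rows by symbol, and coordinates are from it and from RefSeq, not from the authors.

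Named genes were Smn1, the 14 largest rises and 10 largest falls with non-overlapping mice and at least 10 RPKM in the higher group, the 6 largest excesses and shortfalls against the mean of the other 5 populations, and the called members of the lists. Mouse numbers mark 1 animal across populations, so differences between populations are paired by animal. Deviations of facial samples from their group means correlated with those of the same mouse elsewhere at −0.0471 to 0.146 (median 0.0742, 40 correlations). SMA and control mice are different animals.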

Additional observations from a re-analysis of the deposited data

Results flagged for a closer look

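In 10 of 92 groups of 4 mice (named genes, each genotype), 1 mouse lay far from the other 3 by Dixon's test. Groups at 0 in all 4 mice count among the 92 but could not be flagged. For Bglap2, 2010001M06Rik, Rab42 and Psrc1 the other 3 controls were at 0, where any value above 0 is flagged. The usual rate of about 1 in 20 groups therefore does not apply. Among controls the flagged mice were mouse 253 for Snord13 (3.48 RPKM) and Slc13a4 (0.172), mouse 252 for Gtse1 (2.67), mouse 247 for Fam212b (3.84), and mouse 254 for Bglap2 (0.686), 2010001M06Rik (1.19), Rab42 (2.55) and Psrc1 (0.921). Mouse 254 had the deepest library, and the part of depth was not tested. Among SMA mice they were mouse 258 for Cpne2 (67.6) and mouse 196 for Snrpa1 (71.9).

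Genes could enter the test of day 10 minus day 2 through the day 10 SMA mice alone. By limma the genotype difference was larger at day 10 than at day 2 by 4.77 (log2 scale) for Bglap, 4.64 for Bglap2, 4.47 for Ly6d, 3.80 for Cpne2, 3.48 for Gm24517, 2.87 for Pmaip1, 2.66 for Gjb5, 2.32 for Slc13a4, 2.24 for Tnfrsf10b, 2.235 for Trim72, 2.02 for Scn3b and 1.99 for Plk2.

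Against the mean of the other 5 populations it departed by 4.27 for Bglap, 3.54 for Bglap2, 2.585 for Cdkn1a, 2.46 for Dmrtb1, 2.24 for Gfap, 2.185 for Slc13a4, 1.97 for Trim72, 1.87 for Pmaip1, 1.63 for Tnfrsf10b, −0.84 for Cuta and −1.06 for Tmprss15. Against ocular neurons it departed by 2.87 for Bglap2, 2.59 for Gfap, 2.45 for Slc13a4 and −2.02 for Chrm2. Against hypoglossal neurons it departed by 4.52 for 2010001M06Rik and 1.585 for Tnfrsf10b, and against lumbar neurons by 3.07 for Bglap2.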

How the results depend on the processing

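Under the 7 other settings for facial neurons at day 10, the 115 calls numbered 83 to 113, and rises made up 79.8 to 86.6% of them. Of 46 named genes, 19 were called in all 7 settings and all 8 fits with 1 mouse left out, and none changed sign where tested. Ly6d, Tnfrsf10b and Trp73 were called wherever they could be tested. All were listed at 0 in the day 10 controls and went untested where their SMA values missed the filter. Being called in the remaining fits is therefore no measure of robustness. With 1 mouse left out there were 61 to 108 calls, 55 to 91 rises and 6 to 17 falls, 14 to 29 genes for day 10 minus day 2, and 28 to 62 calls absent from other populations. The latter were also 28 where an unadjusted p counted as seen elsewhere. A pseudocount of 0.1 gave 2 calls at day 2, 7 at day 5, 10 for day 10 minus day 2 and 2 in vagus. For the difference from ocular, vagus, hypoglossal and lumbar neurons and the mean of 5 it gave 1, 23, 3, 0 and 3. All named differences from the mean of 5 except Bglap2 and Tnfrsf10b were lost with it. Quantile normalization gave 7 calls at day 5, and 2, 10 and 1 for the differences from ocular, hypoglossal and lumbar neurons. The ocular difference gave 0 where only mice with a facial sample were used. With the mouse as a replicate block (correlation 0.0533), the differences gave 35 genes for red nucleus, 8 for ocular, 56 for vagus, 12 for hypoglossal, 3 for lumbar and 21 for the mean of 5. With 1 mouse left out these were 12 to 34, 0 to 7, 29 to 49, 0 to 12, 0 to 4 and 10 to 20. The causes were not tested. The settings for calls absent elsewhere were chosen after seeing the data. With 2.76 to 9.29 M reads per library, levels under 1 RPKM of short genes stand for few or no reads.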

Other observations

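Several rises outside the naming rule, chosen here after their values were seen, were of secreted or signalling proteins. Serpine2, a protease inhibitor, was at 26.1, 34.5, 38.3 and 31.4 RPKM in controls and 123, 111, 70.5 and 111 in SMA mice, 3.19-fold higher (limma, adjusted p = 5.09e-05), and was called in no other population. In red nucleus and ocular neurons Serpine2 had an unadjusted p under 0.05 in the same direction. No test of its difference between populations passed. Gpx3, a secreted glutathione peroxidase, rose 6.86-fold from 29.1 ± 5.98 to 200 ± 63.7 RPKM, and the chemokine Ccl17 rose 4.21-fold from 50.5 ± 16.5 to 213 ± 17 (SD, n = 4 each). Both were called in ocular and lumbar neurons too. Ddit4l, an inhibitor of mTORC1 signalling, was listed at 0 in all controls and was at 5.55, 8.32, 6.96 and 23 in SMA mice (adjusted p = 1.77e-06). Tnfrsf26, another receptor of the tumour necrosis factor family, went from 0.25 ± 0.183 to 8.39 ± 2.65 RPKM (adjusted p = 7.46e-07). Abcg2, a drug efflux transporter, and Ass1, an enzyme of arginine synthesis, rose 3.69-fold and 3.26-fold and were called in facial neurons alone. Abcg2 passed no test of the difference between populations. Ass1 passed it against red nucleus alone and had an unadjusted p under 0.05 in the same direction in ocular neurons.

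Notch1, a cell surface receptor, was listed at 0 in SMA mouse 196 and at 11.3, 19.6 and 2.56 RPKM in the other SMA mice (adjusted p = 0.0373). Among the falls, Rph3a, the vesicle protein rabphilin, fell 1.73-fold from 118 ± 23.7 to 67.9 ± 11.3 RPKM without overlap (adjusted p = 0.0452). The short rows mmu-mir-6918 and Gm25076 were listed at 0 in all SMA mice, where the controls held 1 to 3 and 4 to 9 reads.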
